A study of Mus musculus with 11 samples.

Results

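The natriuretic peptide genes of the mouse heart were examined together with the protease that activates a precursor and the receptors. They were 7 genes (Nppa, Nppb, Nppc, Corin, Npr1, Npr2 and Npr3) of the 22608 in the table of counts, found by their symbols in the GENCODE M21 annotation, and 6 of them passed the filter on low counts. Ventricle RNA was sequenced from 11 males, 8 to 16 weeks of age, on a C57BL/6J background. Complete deletion (CD) mice carry 1 copy of the chromosome 5 interval from Gtf2i to Fkbp6 in every cell and model Williams–Beuren syndrome (WBS), and WT littermates carry 2 copies. WT VEH (2 mice) and CD VEH (3 mice) received vehicle of dimethyl sulfoxide, polyethylene glycol, Tween-80 and saline. WT JZL184 (3 mice) and CD JZL184 (3 mice) received JZL184, an inhibitor of the enzyme that degrades the endocannabinoid 2-AG, at 8 mg/kg by daily intraperitoneal injection for 10 days. One field of the labels calls the vehicle mice untreated, whereas their titles give vehicle.

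Natriuretic peptides are hormones that heart muscle releases when it is stretched. Nppa encodes atrial natriuretic peptide (ANP) and Nppb encodes B-type natriuretic peptide (BNP), and both genes are used as signs of ventricular stress, while Nppc encodes C-type natriuretic peptide (CNP), which is made mainly outside heart muscle. ANP and BNP act on Npr1 and CNP acts on Npr2, which are guanylyl cyclases that make cGMP, and Npr3 takes up all of these peptides and clears them.

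Nppb (chr4:147985788-147987205) and Nppa (chr4:148000722-148002079) are neighbours on the plus strand, with 13516 bases between them. The bases just before each start are printed because the transcription factors counted further on have known roles at these promoters. They come from the RefSeq promoter table (GRCm38.p6), which held all 7 genes, and were trimmed to end before the first annotated base of the gene. The Nppa window is chr4:148000472-148000721 (250 bases) and the Nppb window is chr4:147985650-147985787 (138 bases), both on the plus strand. The trimming shortened the Nppb window, and the bases it removed were not searched for motifs. Capitals mark matches on either strand to GATAA preceded by A or T (GATA factors), AAGTG (NKX2-5), CATTCC (TEAD factors), GGTGTG (T-box factors) and the CArG box (SRF).
Nppa: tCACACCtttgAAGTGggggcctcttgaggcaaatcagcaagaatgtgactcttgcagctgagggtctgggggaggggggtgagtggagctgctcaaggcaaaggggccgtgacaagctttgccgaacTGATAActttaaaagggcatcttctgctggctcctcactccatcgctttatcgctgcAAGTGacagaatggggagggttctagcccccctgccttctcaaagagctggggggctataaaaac
Nppb: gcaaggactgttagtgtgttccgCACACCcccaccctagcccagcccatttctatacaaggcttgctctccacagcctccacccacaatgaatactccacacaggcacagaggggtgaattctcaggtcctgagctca

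The Nppa window held 2 matches to AAGTG, 1 to GGTGTG and 1 to the GATA motif, and the Nppb window held 1 match to GGTGTG. The GATA motif was first searched as AGATAA alone, which matched none of the 7 windows, and TGATAA was added after the letters of the Nppa window had been seen. Among the other 5 windows, that of Corin held 1 match to GGTGTG and the rest held none of the motifs. Of the 32851 windows in the table, 40.7% held AAGTG, 16.3% held GGTGTG, 16.6% held AGATAA or TGATAA and 9.99% held AGATAA within 250 bases, and 9.21% held GGTGTG within 138 bases. The matches describe the letters of these windows, and binding of factors to them was not measured.

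The deleted interval and the tissue were checked first. Gtf2i, at the edge of the interval, had 51.1 to 68.1 CPM (counts scaled to library size with TMM factors) in the 6 CD mice and 94.96 to 128.9 CPM in the 5 WT mice, and Baz1b and Limk1 did not overlap between genotypes either. Depth was 69660232 to 92251443 counts per mouse. Mitochondrial genes accounted for 39.4% to 41.2% of counts in WT VEH, 45.0% to 46.6% in WT JZL184, 43.5% to 44.7% in CD VEH and 36.4% to 40.1% in CD JZL184, and the part of this share in the results was not tested. All 6 ventricular markers passed the filter, and Myl2, which marks ventricular muscle, was at 5852 to 8344 CPM. Of the 6, 2 were called higher and 1 lower with JZL184 in CD mice, where Myh6 (0.45) and Irx4 (0.35) rose and Myl2 (−0.35) fell on the log2 scale (edgeR adjusted p = 0.0287, 0.0153 and 0.0166). The same 3 were called in the same directions in CD JZL184 against WT JZL184, and Myh6 alone was called, lower, between the vehicle groups and with JZL184 in WT mice. Of 7 atrial markers, the defining ones Sln, Myl7, Bmp10 and Myl4 reached at most 0.188, 0.520, 0.0248 and 1.69 CPM. The summed CPM of the 7 was 47.9 to 50.3 in WT VEH, 29.1 to 37.6 in WT JZL184, 36.2 to 43.7 in CD VEH and 51.1 to 51.7 in CD JZL184, mostly from Kcnj3 (23.0 to 47.8 CPM over all mice). Of the 2 atrial markers that passed the filter, Kcnj3 rose with JZL184 in CD mice (log2 fold-change 0.44, edgeR adjusted p = 0.0132) and fell with it in WT mice (−0.61, edgeR adjusted p = 0.00661). Kcnj3 was also higher in CD JZL184 than in WT JZL184 (0.71, edgeR adjusted p = 0.00135), and Nr2f1 was called in none of these comparisons. The part of these markers in the results was not tested. The libraries are bulk tissue, in which fewer cells of a type and less RNA per cell cannot be told apart.

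Per kilobase of its longest transcript, Nppb had the highest mean level over the 11 mice (244 CPM per kb), followed by Nppa (149.8), Corin (31.0), Npr2 (10.2), Npr1 (4.62) and Npr3 (1.86). Nppb lay above Nppa in 8 of the 11 mice in plain CPM. The ligand genes and Npr3 differed most between mice of the same group. Their SD on the log2 CPM scale within groups was 0.570 for Nppb, 0.547 for Nppa and 0.539 for Npr3, above 99.6%, 99.6% and 99.5% of the 11319 tested genes, whose median was 0.103. Corin (0.166) lay above 82.3% of them, and Npr1 (0.0887) and Npr2 (0.0758) lay below the median.

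**Figure D1:**
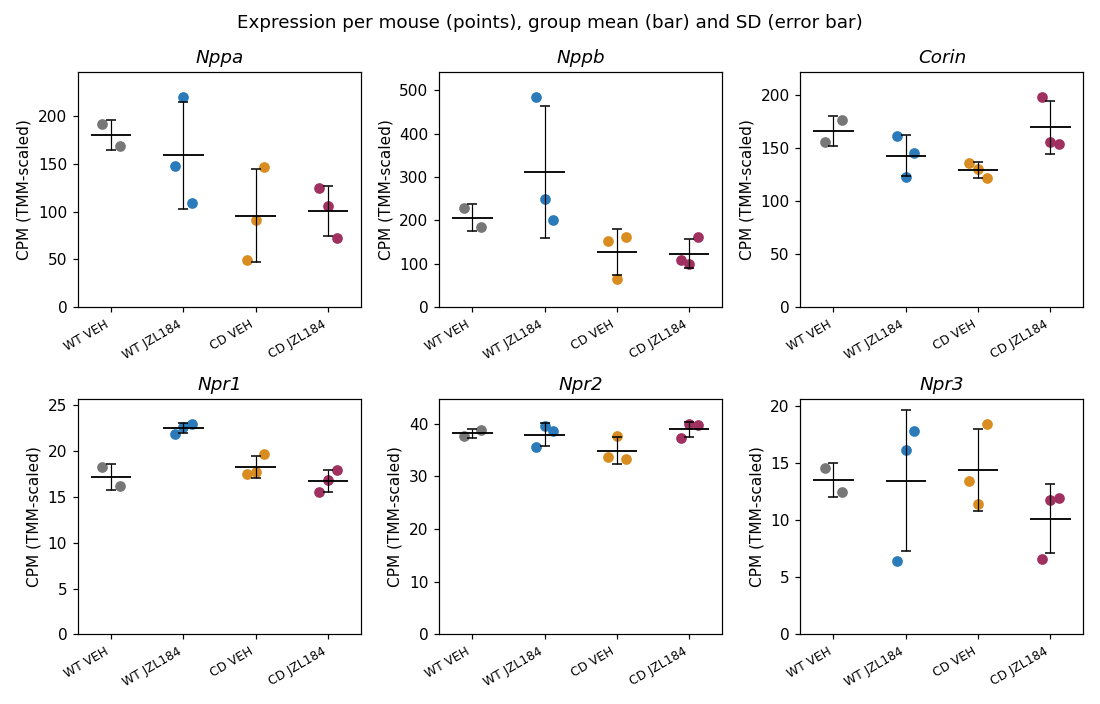
Expression of the 6 tested genes in each mouse (points, CPM after TMM scaling, linear axes from 0), with the group mean (bar) and SD (error bar) for 2 WT VEH mice and 3 mice in each other group. Nppa, Nppb and Npr3 spread widely within groups, whereas the 3 WT JZL184 mice lie above all other mice for Npr1.

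Nppb, the BNP gene, was lower in all 6 CD mice than in any WT mouse. It was at 228 and 184 CPM in WT VEH mice C and D, and at 484, 249 and 200.3 CPM in WT JZL184 mice A, B and D. It was at 154, 65.3 and 161 CPM in the CD VEH mice A, C and E, and at 108, 100.3 and 162 CPM in CD JZL184 mice A, C and E. The highest CD value lay below the lowest WT value, although WT JZL184 mouse A stood far above the other WT mice. How many of all tested genes separate groups without overlap was not counted, here or for the genes below. Between the JZL184 groups, Nppb was 2.52-fold lower in CD mice (log2 fold-change −1.33 ± 0.36, SE, edgeR quasi-likelihood adjusted p = 0.0137). This call was lost without WT JZL184 mouse A (log2 fold-change −0.86, edgeR adjusted p = 0.0509) or with CD JZL184 mouse A left out (−1.25, edgeR adjusted p = 0.0510). Between the vehicle groups, the log2 fold-change of Nppb was −0.70 ± 0.39 (SE) and did not pass the test (edgeR adjusted p = 0.189), and it was −0.40 without CD VEH mouse C (edgeR adjusted p = 0.405).

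Nppa, the ANP gene, showed more overlap. It was at 191 and 169 CPM in WT VEH mice C and D, and at 147.5, 219.6 and 109 CPM in WT JZL184 mice A, B and D. It was at 49.1, 91.7 and 146 CPM in CD VEH mice A, C and E, and at 124, 106 and 72.6 CPM in CD JZL184 mice A, C and E. Every CD mouse was below both WT VEH mice, but WT JZL184 mouse D lay among the CD mice. Its log2 fold-change was −0.91 ± 0.38 (SE) between the vehicle groups (edgeR adjusted p = 0.0837) and −0.65 ± 0.34 between the JZL184 groups (edgeR adjusted p = 0.148). Without CD VEH mouse E, the highest of its group, the first difference was −1.36 and passed the test (edgeR adjusted p = 0.0280). Leaving out mouse A, the lowest of that group, gave −0.60 (edgeR adjusted p = 0.200). The second was −0.34 without WT JZL184 mouse B (edgeR adjusted p = 0.474). An antisense gene, Gm13054, overlaps Nppa on the minus strand and had no entry in the counts. The strand setting of the counting is not given in the sources used here, so whether its reads were counted in Nppa is not known.

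JZL184 did not move either ligand gene past the test. In CD mice, the log2 fold-change with JZL184 was 0.08 for Nppa, with a 95% interval of −0.67 to 0.82, and −0.04 for Nppb, with an interval of −0.81 to 0.74. In WT mice it was −0.18 for Nppa (−1.01 to 0.64) and 0.59 for Nppb (−0.29 to 1.48), which was 0.13 without WT JZL184 mouse A. The intervals leave room for changes in either direction.

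A comparison of CD with WT averaged over vehicle and JZL184 was added after these values had been seen. In it, Nppb was 2.03-fold lower in CD mice (log2 fold-change −1.02 ± 0.27, SE) and Nppa 1.72-fold lower (−0.78 ± 0.25), with unadjusted p-values of 0.00246 and 0.00973 from the edgeR fit. Their edgeR adjusted p-values over all tested genes were 0.0939 and 0.176, so neither passed. Npr1 had an unadjusted p of 0.0104 (edgeR adjusted p = 0.182), and no member was called by edgeR or by DESeq2. Only 1.09% of tested genes were called in this comparison, 0.415% higher and 0.671% lower in CD mice.

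The 2 ligand genes did not keep a fixed proportion. Nppb divided by Nppa in CPM ranged from 0.712 in CD VEH mouse C to 3.28 in WT JZL184 mouse A, with 3.13 for mouse A of CD VEH and 1.196 and 1.09 for WT VEH. The Pearson correlation of their log2 CPM was 0.44 over the 11 mice, which share groups and scaling, and is given as a description.

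**Figure D2:**
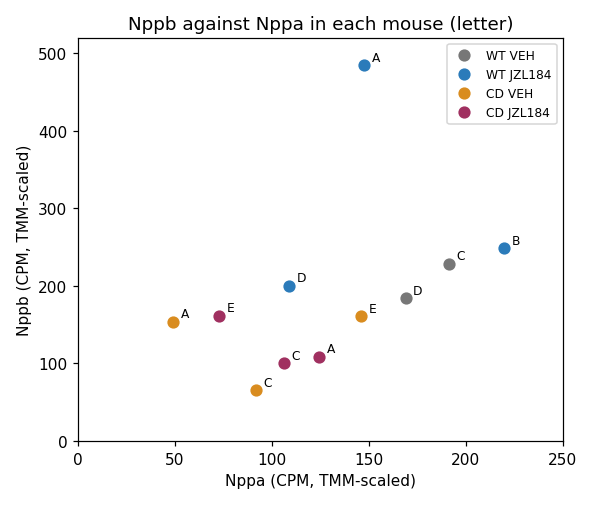
Nppb (vertical axis) against Nppa (horizontal axis) in each mouse, in CPM after TMM scaling and coloured by group. The 6 CD mice lie at or below 162 CPM of Nppb, and WT JZL184 mouse A stands apart at 484 CPM.

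Nppc, the CNP gene, was at 0 to 3 counts in each mouse, at or under a floor of 3 counts (0.0325 to 0.0431 CPM without TMM factors). It did not pass the filter, and no fold-change is given. The floor covers counting error only.

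Corin encodes the transmembrane protease that cuts pro-ANP into the active hormone. It lies at chr5:72300025-72504473 on the minus strand, on the chromosome of the deletion but 61.7 Mb from Gtf2i. Corin was at 156 and 176 CPM in WT VEH mice C and D, and at 161, 122.5 and 146 CPM in WT JZL184 mice A, B and D. It was at 136, 131 and 122 CPM in CD VEH mice A, C and E, and at 198, 156 and 154 CPM in CD JZL184 mice A, C and E. The CD VEH mice were below every WT VEH and every CD JZL184 mouse, and the WT JZL184 mice overlapped all other groups.

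In CD mice, Corin rose 1.31-fold with JZL184, by 0.39 ± 0.12 (SE) on the log2 scale (edgeR adjusted p = 0.0239), the only call among the 6 tested members, while 33.9% of all tested genes were called, 16.8% higher and 17.0% lower. The call was lost when CD JZL184 mouse A was left out (0.26, edgeR adjusted p = 0.0997) or CD VEH mouse E was (0.35, edgeR adjusted p = 0.0864). In CD VEH against WT VEH, Corin had a log2 fold-change of −0.36 ± 0.13 (edgeR adjusted p = 0.0514), just outside the threshold, and DESeq2 called it (−0.36, DESeq2 adjusted p = 0.0223). The edgeR call was also gained without CD JZL184 mouse A, WT JZL184 mouse A or WT JZL184 mouse B (edgeR adjusted p = 0.0319, 0.0348 and 0.0237). The comparisons share the CD VEH mice. Corin is also in a cardiac conduction set that the study took from the Reactome database and crossed with differentially expressed genes of these samples. Its direction there is therefore not independent evidence. The change with JZL184 differed between genotypes for Corin (interaction 0.60 ± 0.17 on the log2 scale, edgeR adjusted p = 0.0120), but not without WT VEH mouse D (0.51, edgeR adjusted p = 0.0615).

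Npr1, the receptor of ANP and BNP, was highest in WT JZL184. It was at 18.2 and 16.1 CPM in WT VEH mice C and D, and at 21.8, 22.6 and 22.9 CPM in WT JZL184 mice A, B and D. It was at 17.4, 17.7 and 19.6 CPM in CD VEH mice A, C and E, and at 15.5, 16.8 and 17.9 CPM in CD JZL184 mice A, C and E. The WT JZL184 mice lay above all others, and the other 3 groups overlapped.

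Npr1 rose 1.31-fold with JZL184 in WT mice, by 0.39 ± 0.08 (SE) on the log2 scale (edgeR adjusted p = 0.00742). It was the only member called there, where 29.4% of tested genes were called, 15.4% higher and 14.0% lower. Without WT VEH mouse D the call was lost (0.30, edgeR adjusted p = 0.0769). In CD JZL184 against WT JZL184, Npr1 was 1.34-fold lower (−0.42 ± 0.07, edgeR adjusted p = 0.00171), and with Nppb it made 2 calls of 6, against 38.3% of tested genes, 18.2% higher and 20.1% lower. These comparisons share the WT JZL184 mice. In CD mice the change with JZL184 was −0.13 ± 0.07 (edgeR adjusted p = 0.190), and it was −0.065 without CD VEH mouse E and −0.077 without CD JZL184 mouse A. The genotypes differed in it (interaction −0.52 ± 0.11, edgeR adjusted p = 0.00252). The interaction was called for 2 of the 6 members and for 51.5% of all tested genes.

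Npr2, the receptor of CNP, varied least. Its range was 37.6 to 38.8 CPM in WT VEH, 35.5 to 39.6 in WT JZL184, 33.4 to 37.8 in CD VEH and 37.4 to 39.9 in CD JZL184. All pairs of groups overlapped, and the log2 fold-changes were −0.13 ± 0.07 (SE) in CD VEH against WT VEH and 0.16 ± 0.07 with JZL184 in CD mice (edgeR adjusted p = 0.192 and 0.0781). The latter passed the test without CD VEH mouse C (0.23, edgeR adjusted p = 0.0209) or WT JZL184 mouse A (0.17, edgeR adjusted p = 0.0404).

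Npr3, the clearance receptor, depended on single mice. It was at 14.6 and 12.5 CPM in WT VEH mice C and D, and at 6.46, 16.2 and 17.8 CPM in WT JZL184 mice A, B and D. It was at 13.4, 11.4 and 18.4 CPM in CD VEH mice A, C and E, and at 6.65, 11.8 and 11.96 CPM in CD JZL184 mice A, C and E. WT JZL184 mouse A and CD JZL184 mouse A were low, and all groups but WT VEH and CD JZL184 overlapped. The log2 fold-change was −0.51 ± 0.32 (SE) with JZL184 in CD mice (edgeR adjusted p = 0.241) and −0.41 ± 0.33 in CD JZL184 against WT JZL184 (edgeR adjusted p = 0.334). Without WT JZL184 mouse A, the latter was −0.75 and passed the test (edgeR adjusted p = 0.0273), whereas it was −0.15 without WT JZL184 mouse D, −0.27 without WT JZL184 mouse B and −0.18 without CD JZL184 mouse A, with edgeR adjusted p-values of 0.761, 0.600 and 0.704. The difference with JZL184 in CD mice was −0.28 both without CD JZL184 mouse A and without CD VEH mouse E (edgeR adjusted p = 0.561 and 0.587).

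**Figure D3:**
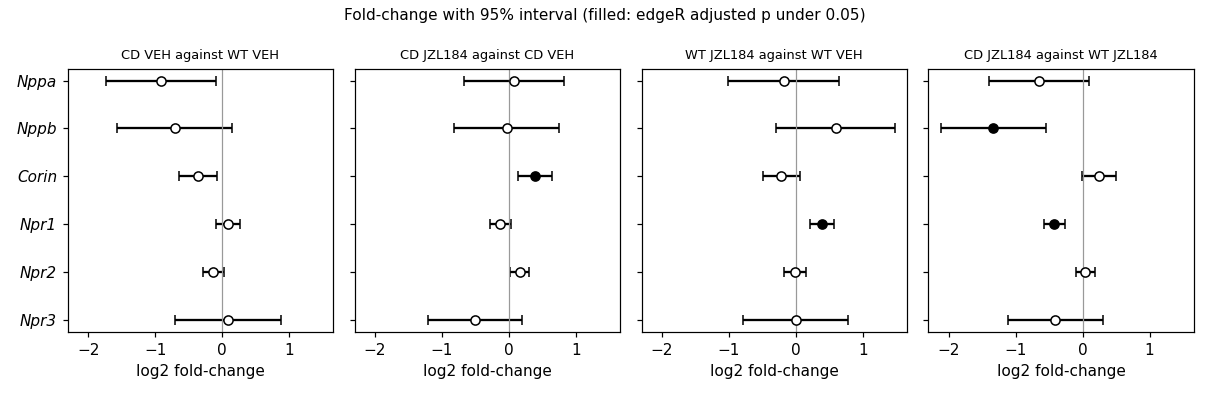
Log2 fold-change (horizontal axis) of the 6 tested genes with its 95% interval in 4 comparisons, from the fit over all 11 mice. Filled points passed the edgeR test, which are Corin, Npr1 and, in CD JZL184 against WT JZL184, Npr1 and Nppb.

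In CD VEH against WT VEH, none of the 6 members passed the edgeR test, 2 had an unadjusted p under 0.05 and DESeq2 called 1, while 30.4% of tested genes were called, 15.0% higher and 15.4% lower. The members' median log2 fold-change was −0.24, against 0.01 over all tested genes. An exact two-sided permutation test of 3 mice against 3 can give no p below 0.1, and such a test of 2 WT VEH mice against 3 cannot go below it either.

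Processing and clearance of the hormones were read from a list of 6 other genes. The 5 that passed the filter encode enzymes, and Ostn, which encodes a secreted peptide that binds Npr3, was filtered out. In CD VEH against WT VEH, Dpp4, a peptidase that trims BNP, rose (log2 fold-change 0.77 ± 0.23, SE) and Ide, a protease that degrades ANP, fell (−0.30 ± 0.10), with edgeR adjusted p-values of 0.0262 and 0.0463, which made 2 calls of 5 against 30.4% of all tested genes. With JZL184 in CD mice, Furin, which cuts pro-BNP and pro-CNP, rose by 0.28 and Ide by 0.28 on the log2 scale, and Dpp4 fell by 0.75 (3 of 5, against 33.9%). In WT mice, only Pcsk6, which activates corin, was called with JZL184 (0.37 ± 0.12, edgeR adjusted p = 0.0327), or 1 of 5 against 29.4%. In CD JZL184 against WT JZL184, Furin (0.31) and Ide (0.26) were higher and Pcsk6 (−0.44) was lower, or 3 of 5 against 38.3%. Mme, which encodes neprilysin, the main enzyme that degrades natriuretic peptides, had mean levels of 7.99 to 9.56 CPM over the groups and was called in no comparison.

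A cGMP list of 21 genes held those that make, break down or respond to cGMP, and Gnai2, a G protein subunit linked to Npr3. Of the 21, 17 were tested. Of these, 8 were called higher and 3 lower, in CD VEH against WT VEH, with a median log2 fold-change of 0.32, against 15.0% and 15.4% of all tested genes. With JZL184 in CD mice, 3 were called higher and 8 lower (median −0.30), against 16.8% and 17.0%. In WT mice 9 were higher and 3 lower with JZL184 (median 0.35), against 15.4% and 14.0%, and in CD JZL184 against WT JZL184 1 was higher and 9 lower (median −0.34), against 18.2% and 20.1%. The medians over all tested genes were within 0.01 of 0. These comparisons share mice.

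Gucy1b1, a subunit of the guanylyl cyclase that senses nitric oxide, was at 14.2 ± 0.506 CPM (SD, n = 2) in WT VEH, 21.9 ± 0.743 (n = 3) in WT JZL184, 21.1 ± 1.31 (n = 3) in CD VEH and 14.7 ± 0.388 (n = 3) in CD JZL184. WT JZL184 and CD VEH lay above the other groups without overlap. The phosphodiesterase gene Pde3a ran the other way, at 85.4 ± 1.81, 57.7 ± 7.35, 69.2 ± 4.58 and 96.3 ± 5.80 CPM in the same order. Its log2 fold-change was 0.48 ± 0.09 (SE) with JZL184 in CD mice and −0.57 ± 0.10 in WT mice (edgeR adjusted p = 0.00373 and 0.00378). Prkg1, the cGMP-dependent kinase, was not called in any pairwise comparison.

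**Figure D4:**
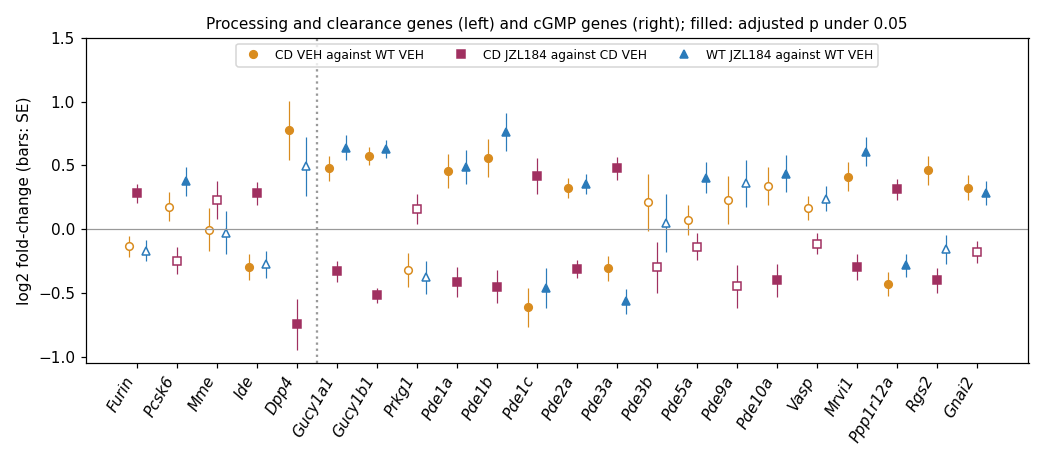
Log2 fold-change (vertical axis, bars are SE) of 5 processing and clearance genes and 17 genes of the cGMP list in 3 comparisons. Filled points had an edgeR adjusted p under 0.05. Gucy1b1 was higher in CD VEH and in WT JZL184 against WT VEH, and lower with JZL184 in CD mice.

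Markers of several other cell types were called in the same comparisons. The summed CPM of 10 endothelial markers was 599 to 603 in WT VEH, 863 to 940 in WT JZL184, 741 to 827 in CD VEH and 568 to 665 in CD JZL184. Of the 10, 5 were called higher in CD VEH against WT VEH, 5 lower with JZL184 in CD mice, 6 higher with JZL184 in WT mice and 7 lower in CD JZL184 than in WT JZL184, where 15.0%, 17.0%, 15.4% and 20.1% of all tested genes were called in these directions. In the same order, the 7 fibroblast markers had 3 higher, 4 lower, 5 higher and 5 lower. The 6 tested smooth muscle and pericyte markers had 5 higher, 4 lower, 5 higher and 6 lower. The 5 macrophage markers had 4 higher, 5 lower, 5 higher and 5 lower. All calls of these lists went in these directions. Some uncalled genes went the other way, such as Col1a1 with JZL184 in WT mice (−0.11) and Acta2 under vehicle (−0.15). Npr1 and Npr3 are known in blood vessels as well as muscle, and the part of these markers in the results was not tested. None of the 5 adipocyte markers passed the filter, and 3 of 6 conduction markers did. Of these 3, Hcn4 rose with JZL184 in CD mice (0.68 on the log2 scale, edgeR adjusted p = 0.0146), the opposite direction to the markers above. In CD JZL184 against WT JZL184, Hcn4 (0.71) and Cacna1g (0.69) were called higher and Gja5 (−0.53) lower (edgeR adjusted p = 0.0101, 0.0410 and 0.0170). None of the 3 was called under vehicle or with JZL184 in WT mice.

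A list of 19 transcription factors and cofactors with known roles at the Nppa and Nppb promoters, among them the histone deacetylases Hdac4, Hdac5 and Hdac9, was tested in full. Under vehicle, 2 (Tbx3 and Hdac5) were called higher and 9 lower in CD mice, against 15.0% and 15.4% of all tested genes. With JZL184 in CD mice 13 were called higher and 1 lower, against 16.8% and 17.0%. In WT mice 1 was higher and 9 lower with JZL184 (15.4% and 14.0%), and in CD JZL184 against WT JZL184 14 were higher and 1 lower (18.2% and 20.1%). Tead1, a factor of the CATTCC motif, was at 174.7 ± 0.172 CPM (SD, n = 2) in WT VEH, 113 ± 10.7 (n = 3) in WT JZL184, 113 ± 11.4 (n = 3) in CD VEH and 174 ± 3.47 (n = 3) in CD JZL184. Myocd, a partner of SRF, had 43.6, 24.1, 26.0 and 40.3 CPM in the same order. The order of the group means differed for Nppb, which was highest in WT JZL184 (311 CPM) and lower in CD VEH and CD JZL184 (127 and 123 CPM), which overlapped.

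The stress and fetal gene programme, of which Nppa and Nppb are part, held 10 tested genes. Under vehicle, 5 were called lower in CD than in WT mice (15.4% of all tested genes were). They were Acta1, Actc1, Myh7, Myh6 (−0.44) and Atp2a2 (−0.37), of which Myh6 and Atp2a2 are adult genes known to fall when the fetal genes rise, so the count is not a count in 1 direction of the programme. With JZL184, 3 were called higher in CD mice (16.8% of all tested genes were) and 3 lower in WT mice (14.0%). Both times they were Myh7 and the adult genes Myh6 and Atp2a2. In CD JZL184 against WT JZL184, the same 3 were called higher, and Acta1, Ccn2 and Nppb were the 3 called lower (18.2% and 20.1%). Acta1, skeletal actin, was at 203 to 225 CPM in WT VEH, 160 to 195 in WT JZL184, 22.3 to 59.96 in CD VEH and 31.2 to 74.1 in CD JZL184, with no overlap between genotypes. Its log2 fold-change in CD against WT mice was −2.24 ± 0.37 (SE) under vehicle and −1.82 ± 0.34 under JZL184 (edgeR adjusted p = 0.00330 and 0.00238), and 0.15 ± 0.33 with JZL184 in CD mice (edgeR adjusted p = 0.756). Myh7, the slow myosin heavy chain, fell in CD VEH (−1.06 ± 0.19, edgeR adjusted p = 0.00452) and rose with JZL184 in CD mice (0.70 ± 0.18, edgeR adjusted p = 0.0121). It fell with JZL184 in WT mice (−0.98 ± 0.19, edgeR adjusted p = 0.00564) and was higher in CD JZL184 than in WT JZL184 (0.63 ± 0.18, edgeR adjusted p = 0.0158).

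The genes whose log2 CPM followed each member most closely over the 11 mice were ranked by Pearson correlation, as a description. Ccn2, a secreted factor of the stress programme, held rank 3 for Nppb (r = 0.90) after Kbtbd2 (0.90) and Cfap74 (0.90). For Npr3 they were led by Fbn1 (0.93), which encodes fibrillin, and held Vwf (0.90) of endothelium. Kansl1l (0.94) led for Corin, Hip1r (0.97) for Npr1, Pacs1 (0.93) for Npr2 and Mrps25 (0.86) for Nppa. Among the members, the correlation was 0.63 for Nppb with Npr1 and −0.69 for Corin with Npr3. Within 100000 bases of Nppa and Nppb, 6 of 12 annotated genes were tested. With JZL184 in CD mice, Mfn2 rose by 0.36 ± 0.07 (SE) on the log2 scale and Clcn6 by 0.27 ± 0.06 (edgeR adjusted p = 0.00463 and 0.00798), which made 2 calls of 6 against 33.9% of all tested genes. Mfn2 was the 1 call of 6 between the vehicle groups (−0.25) and with JZL184 in WT mice (−0.35), against 30.4% and 29.4%. Mfn2 was higher (0.46) and Plod1 was lower in CD JZL184 than in WT JZL184 (−0.33 ± 0.08, edgeR adjusted p = 0.00645), or 2 of 6 against 38.3%.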

How the data were processed

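Ventricle RNA of 11 mice was sequenced, and the authors deposited unnormalized estimated counts of each gene in 1 table, from Salmon 0.7.2 (Ensembl release 85) and tximport 1.2.0. Columns name the group and a letter, and 0 columns had no group. No label ties a letter to a numbered sample. Rounded counts were analysed by the quasi-likelihood test of edgeR 4.0.16 (R 4.3.3), with TMM factors and all groups in 1 model without covariates. Of 22608 genes, the 11319 whose mean log2 CPM reached 1 were tested, with Benjamini-Hochberg adjustment over them, and genes with an adjusted p under 0.05 were called. Transcript lengths of tximport were not used. GENCODE M21 matched 22238 genes. Correlations used log2 CPM with a prior count of 2. Steps were tested on simulated counts. Depth was 69660232 to 92251443 counts per mouse.

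The members and gene lists were chosen with earlier results of these data known. All members, any gene of the fixed lists, the neighbours of Nppa and Nppb and the 5 genes most correlated with each member could be named. The comparison averaged over treatments and the motif TGATAA were added after values or sequences had been seen, and the genes used to check the deletion are outside the rule. Alternatives were DESeq2 1.42.0, RLE and upper quartile factors, other count filters, only the compared groups, offsets for gene length and GC content (loess, span 0.5), no mitochondrial genes, stricter thresholds, the column letter as a block (added after the data had been seen) and leaving out each mouse. Each mouse was taken as a replicate. The edgeR p-values set a difference against the spread between these mice, which the fit estimates with help from all tested genes.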

Additional observations from a re-analysis of the deposited data

Results flagged for a closer look

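The change with JZL184 differed between CD and WT mice for 2 members, Corin and Npr1, and for genes of the processing and cGMP lists, by the interaction term of the edgeR fit. The difference of the log2 fold-changes, CD minus WT, was above 0 for Corin (0.60), Furin (0.45), Ide (0.56), Pde1c (0.88), Pde3a (1.04), Ppp1r12a (0.60) and Prkg1 (0.54). It was below 0 for Dpp4 (−1.24), Gnai2 (−0.46), Gucy1a1 (−0.97), Gucy1b1 (−1.15), Mrvi1 (−0.90), Npr1 (−0.52), Pcsk6 (−0.62), Pde10a (−0.84), Pde1a (−0.90), Pde1b (−1.22), Pde2a (−0.67), Pde5a (−0.54), Pde9a (−0.81) and Vasp (−0.35). The same term was called for 51.5% of all tested genes.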

How the results depend on the processing

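Of 816 values of the 36 member results under alternatives, 758 kept direction and call, 14 lost the call, 18 gained it and 26 changed sign. The cause of these changes was not tested. In CD VEH against WT VEH the count of members called went from 0 to 1 with DESeq2, with only the compared groups (Corin), with the gene length offset (Nppa) and with the GC offset (Npr2), and was 0 to 1 on leaving out single mice. With JZL184 in CD mice it was 2 with the GC offset, 0 at an adjusted p under 0.01, 0 when a log2 fold-change of 1 or more in size was required, and 0 to 2 without single mice. With JZL184 in WT mice it was 0 at that fold-change and 0 to 1 without single mice. In CD JZL184 against WT JZL184 it was 1 at either stricter threshold and 1 to 3 without single mice, and for the interaction 1 at an adjusted p under 0.01, 0 at that fold-change and 1 to 3 without single mice. The averaged comparison gave 0 without any single mouse.

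Signs that changed belonged to uncalled log2 fold-changes. Nppb with JZL184 in CD mice was 0.30 with the length offset. With JZL184 in WT mice, Npr2 was 0.030 with upper quartile factors and 0.0074 with only the compared groups, and Npr3 was 0.038 with upper quartile factors, 0.011 with only the compared groups, 0.083 with the length offset and 0.016 with the GC offset. Leaving out single mice gave −0.23 to 0.53 for Nppa and −0.34 to 0.18 for Nppb with JZL184 in CD mice, and −0.49 to 0.029 for Nppa, −0.040 to 0.038 for Npr2 and −0.26 to 0.33 for Npr3 in WT mice. It gave −0.13 to 0.23 for Npr3 in CD VEH against WT VEH, −0.0061 to 0.073 for Npr2 in CD JZL184 against WT JZL184 and −0.049 to 0.71 for Nppa in the interaction.

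A fit with the letter of each column as a replicate block was added after the data had been seen. No label says what mice with the same letter share. Of 8 pairs of mice with the same letter in different groups, 1 had a correlation over 0.1 in its deviations from the group means (range −0.25 to 0.32), and 2 of 10 mice were closest to a mouse of their own letter, so the letters were not taken as pairs. With the block, 3 residual degrees of freedom remained, and edgeR called 2 members between the vehicle groups, Nppb (−1.58) and Corin (−0.35), and 1 in the averaged comparison, Nppb (−1.68). The count of members called was unchanged in the other 4 comparisons. Signs changed for Nppb with JZL184 in CD mice (0.047), Npr2 with JZL184 in WT mice (0.017), and Npr2 (0.022) and Npr3 (0.098) in the averaged comparison. Over all tested genes, the block moved the number of calls from 3438 to 2401 between the vehicle groups, from 3832 to 3912 with JZL184 in CD mice, from 3330 to 599 in WT mice, from 4331 to 1186 between the JZL184 groups, from 5833 to 4553 for the interaction and from 123 to 75 in the averaged comparison.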
